A study of Mus musculus with 24 samples.

Results

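The genes described here encode the nuclear receptors PPAR alpha, PPAR delta and PPAR gamma (Ppara, Ppard, Pparg), their dimer partners RXR alpha and RXR gamma (Rxra, Rxrg), the coactivators PGC-1 alpha and PGC-1 beta (Ppargc1a, Ppargc1b), and the estrogen-related receptors alpha, beta and gamma (Esrra, Esrrb, Esrrg). They were chosen by gene name on the array, and 10 of 10 were measured, through 16 probes, among 28235 genes tested. Left ventricular RNA came from 24 male mice, 6 in each of 4 groups, with 1 array per mouse. CON mice were the controls, and mG4H mice carried an inducible transgene for the glucose transporter GLUT4 that is expressed in cardiomyocytes only. VEH mice received citrate buffer, and STZ mice received streptozotocin, which kills insulin-producing cells, in 5 daily doses of 55 mg per kg. The transgene was induced 2 weeks after STZ, and tissue was taken 2 weeks later. The labels name neither the promoter and inducing agent of the transgene nor the strain or age of the mice, and they report siblings among the groups without saying which mice these were. The design asks what added glucose uptake does to the heart of a diabetic mouse.

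PPARs bind DNA as heterodimers with RXR and are switched on by fatty acids and their derivatives. In heart muscle, PPAR alpha and PPAR delta drive the genes of fatty acid uptake and oxidation, whereas PPAR gamma is best known as the regulator of fat cells. The estrogen-related receptors bind no known natural estrogen, act on genes of mitochondrial energy production, and rely on PGC-1 coactivators, which have no DNA-binding domain of their own and also serve the PPARs.

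Upstream sequence was available from RefSeq (build GRCm38.p6) for 9 of the 10 genes, in 17 windows of 250 bases before an annotated transcript start. Ppargc1b had no entry. Each window was searched on both strands for AAGGTCA, the extended element that estrogen-related receptors can bind, for its longer form TCAAGGTCA, which contains it, and for the direct repeat of AGGTCA with 1 base between the copies, which PPAR and RXR bind together. AAGGTCA occurred in 2 of the 17 windows (11.8%) against 1340 of all 32851 windows (4.08%). The longer forms occurred in 0 of the 17, against 0.387% and 0.0335% of all windows. Both matches lay before a start of an RXR gene. These windows are shown with the match in capitals, together with the other start of Rxrg. A link between these matches and mRNA levels was not tested. The Rxra match begins 49 bases and the Rxrg match 89 bases before the start.
Rxra, plus strand, chr2:27709042-27709291: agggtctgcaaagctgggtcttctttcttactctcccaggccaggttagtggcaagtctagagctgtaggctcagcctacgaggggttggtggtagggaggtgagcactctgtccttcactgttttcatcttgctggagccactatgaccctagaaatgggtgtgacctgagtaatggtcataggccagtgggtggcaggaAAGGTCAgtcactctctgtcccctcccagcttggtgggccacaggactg
Rxrg, plus strand, chr1:167618015-167618264: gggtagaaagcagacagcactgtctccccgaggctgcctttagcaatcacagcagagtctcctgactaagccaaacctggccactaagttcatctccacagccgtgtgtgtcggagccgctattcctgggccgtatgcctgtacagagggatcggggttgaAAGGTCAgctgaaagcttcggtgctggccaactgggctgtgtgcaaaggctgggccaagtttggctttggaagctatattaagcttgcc
Rxrg, plus strand, chr1:167598112-167598361: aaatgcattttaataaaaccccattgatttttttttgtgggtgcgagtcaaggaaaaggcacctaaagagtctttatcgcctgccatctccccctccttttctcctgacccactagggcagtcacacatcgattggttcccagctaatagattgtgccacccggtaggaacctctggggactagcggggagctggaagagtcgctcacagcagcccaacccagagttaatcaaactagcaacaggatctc

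Every probe of the 10 genes was well above background on 24 of 24 arrays, and none was saturated. A level is the log2 processed signal minus the log2 of that array's 75th percentile, so 0 is the 75th percentile of the array. The probe with the highest mean stands for a gene, and levels of different probes are not compared. All 10 markers of cardiomyocytes were measured, and their summed signal, in multiples of the array's 75th percentile, ran from 3397 to 4634 in CON VEH, 3157 to 4426 in CON STZ, 3371 to 4423 in mG4H VEH and 3401 to 4245 in mG4H STZ. In RNA of whole tissue, fewer cells of a type and less RNA per cell cannot be told apart. Of the 4 slides, 3 carried arrays of all groups; the fourth, read on its own day, carried 1 array each of CON VEH and mG4H VEH (replicate 3). The probe for Slc2a4, the gene for GLUT4, gave no called rise with the transgene: the log2 difference of mG4H from CON was -0.20 ± 0.16 (SE, n = 6 per group) under VEH and 0.20 ± 0.16 under STZ, with limma adjusted p of 1. Whether this probe reads the transgene's transcript was not tested, so it does not check the genotype labels.

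STZ changed 1 of these 10 mRNAs past the threshold in CON mice and none in mG4H mice, and GLUT4 induction changed none. In CON mice Esrrg was the 1 gene of 10 called by limma at a Benjamini-Hochberg adjusted p under 0.05 over all genes, against 3.96% of all genes tested, and it fell, as 2.3% did. In mG4H mice, 0 of 10 were called after STZ, against 0.266% of all genes (higher 0.0992%, lower 0.166%). There 2 of 10, Pparg and Rxrg, had an unadjusted limma p under 0.05, as did 14% of all genes. In CON mice, Pparg, Rxrg and Esrrg had an unadjusted p under 0.05, as did 14.3% of all genes. With the mean of both STZ effects taken as 1 contrast, a comparison added after the data were seen, 3 of 10 were called, against 10.3% of all genes: Pparg rose (4.51% of all genes did), and Rxrg and Esrrg fell (5.79% did). Esrrg missed the threshold in that contrast with slide as a block (adjusted p = 0.0686), in 10 of 14 settings in all, and in 19 of 24 fits without 1 array (adjusted p up to 0.0895). That contrast uses the same 24 arrays as the single ones and is no independent evidence. For mG4H against CON, 0 of 10 were called under VEH (0.0815% of all genes) and 0 of 10 under STZ (0.0106%). For the difference between the STZ effects, 0 of 10 were called, as was 0% of all genes. Only 1.77% of all genes (501) had an unadjusted limma p under 0.05 there.

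**Figure D1:**
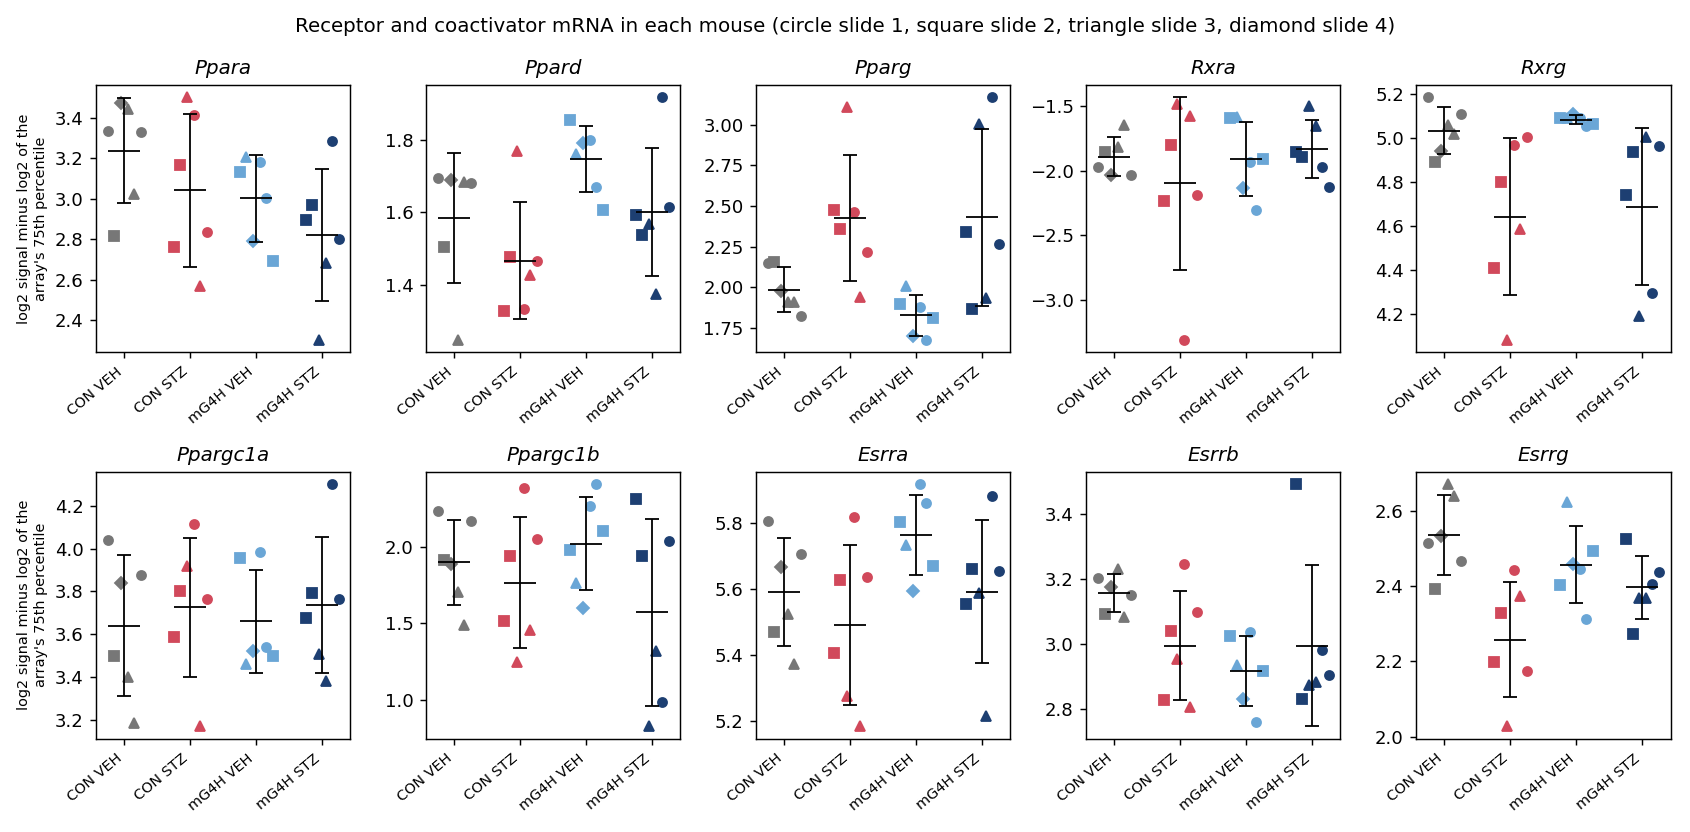
Level of each gene in each of the 24 ventricles, as log2 signal minus the log2 of the array's 75th percentile, by group. Marker shape gives the slide, and lines give the mean and SD of 6 mice. Pparg is spread upward and Rxrg downward in both STZ groups, whereas the VEH mice lie close together.

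Among the PPARs, Pparg differed most between treatments. Its level in CON VEH was 1.82 at the lowest, 1.94 at the median and 2.15 at the highest, and in CON STZ it was 1.94, 2.41 and 3.11. Of the 6 CON STZ mice, 5 lay above every CON VEH mouse, and the groups overlapped through 1 mouse. In mG4H VEH the lowest, median and highest levels were 1.68, 1.84 and 2.01, and in mG4H STZ they were 1.87, 2.30 and 3.17. Here 4 of 6 STZ mice lay above every VEH mouse. The log2 change was 0.44 ± 0.20 (SE, n = 6 per group; 95% interval 0.04 to 0.85; limma adjusted p = 0.284) in CON and 0.60 ± 0.20 (0.19 to 1.01; adjusted p = 0.166) in mG4H, and neither passed. Over both genotypes Pparg rose by 0.52 ± 0.14, or 1.44-fold (adjusted p = 0.0177). The 4 group means fell in the order mG4H STZ (2.43 ± 0.54, SD), CON STZ (2.43 ± 0.39), CON VEH (1.99 ± 0.14) and mG4H VEH (1.83 ± 0.13); the neighbouring STZ groups did not differ beyond their SD. Within slides 1, 2 and 3 the change was 0.36, 0.26 and 0.62 in CON and 0.94, 0.25 and 0.46 in mG4H.

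Because PPAR gamma marks fat cells, adipocyte markers are given beside this rise. All 8 were measured, and 1 of 8, Fabp4, a fatty acid carrier of fat cells and capillaries that is itself a known PPAR gamma target, rose over both genotypes (0.34 ± 0.092, adjusted p = 0.0199). Fabp4 dominated the summed marker signal, which ran from 234 to 303 in CON VEH, 318 to 472 in 5 CON STZ arrays with all markers present, 223 to 296 in mG4H VEH and 262 to 412 in mG4H STZ. Among arrays with all markers, the mice with the highest sums were those with the highest Pparg: CON STZ replicate 3 (472), mG4H STZ replicate 5 (412) and mG4H STZ replicate 3 (404). The mean level of Adipoq, the fat cell hormone adiponectin, was -2.89 in CON VEH, -2.17 in CON STZ, -2.44 in mG4H VEH and -2.70 in mG4H STZ, below the array's 75th percentile in all of them. The sum of 7 measured macrophage markers of 8 ran from 49.7 to 59.4 in CON VEH and 61.8 to 78.7 in CON STZ. In mG4H VEH it ran from 48.2 to 56.4, and in mG4H STZ from 52.1 to 68.3. The STZ change was above 0 for 6 of 7 in CON, with 1 called (Itgam), and for 5 of 7 in mG4H, with 0 called. Fcgr1 went the other way, with means of -2.69 in CON VEH, -3.05 in CON STZ, -2.74 in mG4H VEH and -3.59 in mG4H STZ. Of 8 fibroblast markers, Postn (1.26 ± 0.36, adjusted p = 0.0498) and Mfap5 (0.84 ± 0.23, adjusted p = 0.0368) rose in CON STZ. With the mean of both STZ effects, these and Pdgfra were called as higher. The change was above 0 for 8 of 8 in CON but for 4 of 8 in mG4H, where 0 were called. Col1a1, Col1a2, Col3a1 and Lum had lower means in mG4H STZ than in mG4H VEH. The sum of all 8 ran from 324 to 395 in CON VEH and 319 to 584 in CON STZ. In mG4H VEH it ran from 297 to 425, and in mG4H STZ from 334 to 468. Of the 10 cardiomyocyte markers, 1 was called in CON STZ: Ckm, the muscle creatine kinase, fell by 0.47 ± 0.10 (adjusted p = 0.00952). The STZ change was above 0 for 0 of 10 in CON (median -0.11) and for 2 of 10 in mG4H (median -0.10). Of 8 endothelial markers, 0 were called, and the change was above 0 for 2 in CON and 3 in mG4H. The part of these cell types in the results on Pparg, Rxrg and Esrrg was not tested.

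Ppara and Ppard, the PPARs that govern fatty acid oxidation in cardiomyocytes, were not called. Ppara had a lowest, median and highest level of 2.82, 3.33 and 3.47 in CON VEH, 2.57, 3.0 and 3.50 in CON STZ, 2.69, 3.07 and 3.21 in mG4H VEH, and 2.30, 2.85 and 3.29 in mG4H STZ. All 4 groups overlapped, and no neighbours in the order of means differed beyond their SD. The STZ change of Ppara was -0.20 (95% interval -0.55 to 0.16) in CON and -0.18 (-0.54 to 0.18) in mG4H. Of its other probes, one gave -0.25 ± 0.17 and -0.26 ± 0.17, and the other -0.09 ± 0.14 and 0.11 ± 0.14, so the probes disagree in sign in mG4H, with no adjusted p under 0.05. Ppard ran from 1.25 to 1.69 in CON VEH, 1.33 to 1.77 in CON STZ, 1.61 to 1.86 in mG4H VEH and 1.37 to 1.92 in mG4H STZ. Its STZ change was -0.12 (-0.32 to 0.08) in CON and -0.15 (-0.35 to 0.05) in mG4H.

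Rxrg, the RXR form found in striated muscle, moved the other way from Pparg. Its lowest, median and highest levels were 4.89, 5.04 and 5.19 in CON VEH and 4.08, 4.70 and 5.01 in CON STZ, with 4 of 6 STZ mice below every VEH mouse. In mG4H VEH the 6 mice spanned only 5.06 to 5.11 (median 5.09), and in mG4H STZ they spanned 4.19 to 5.00 (median 4.84). These mG4H groups did not overlap at this probe, but they did at the other Rxrg probe. The share of all genes without overlap in this comparison was not counted. The log2 change was -0.39 ± 0.15 (95% interval -0.70 to -0.08; limma adjusted p = 0.176) in CON and -0.40 ± 0.15 (-0.71 to -0.09; adjusted p = 0.223) in mG4H, and over both genotypes Rxrg fell by 0.39 ± 0.11 (adjusted p = 0.0187). Its other probe changed by -0.26 ± 0.093 in CON and -0.27 ± 0.093 in mG4H, and over both it fell by 0.26 ± 0.066 (adjusted p = 0.0136 over all probes). Within slides 1, 2 and 3 Rxrg changed by -0.16, -0.29 and -0.70 in CON and by -0.45, -0.24 and -0.49 in mG4H.

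Rxra, the widely expressed RXR form, was not called. Its levels ran from -2.04 to -1.64 in CON VEH, -3.31 to -1.48 in CON STZ, -2.31 to -1.58 in mG4H VEH and -2.13 to -1.50 in mG4H STZ, with all groups overlapping. The lowest value, -3.31, belonged to CON STZ replicate 4. The STZ change was -0.21 (95% interval -0.66 to 0.25) in CON and 0.08 (-0.38 to 0.53) in mG4H, and the other probe gave 0.11 ± 0.33 and 0.47 ± 0.33. Without CON STZ replicate 4 the change in CON was 0.04, so its sign rests on that mouse.

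**Figure D2:**
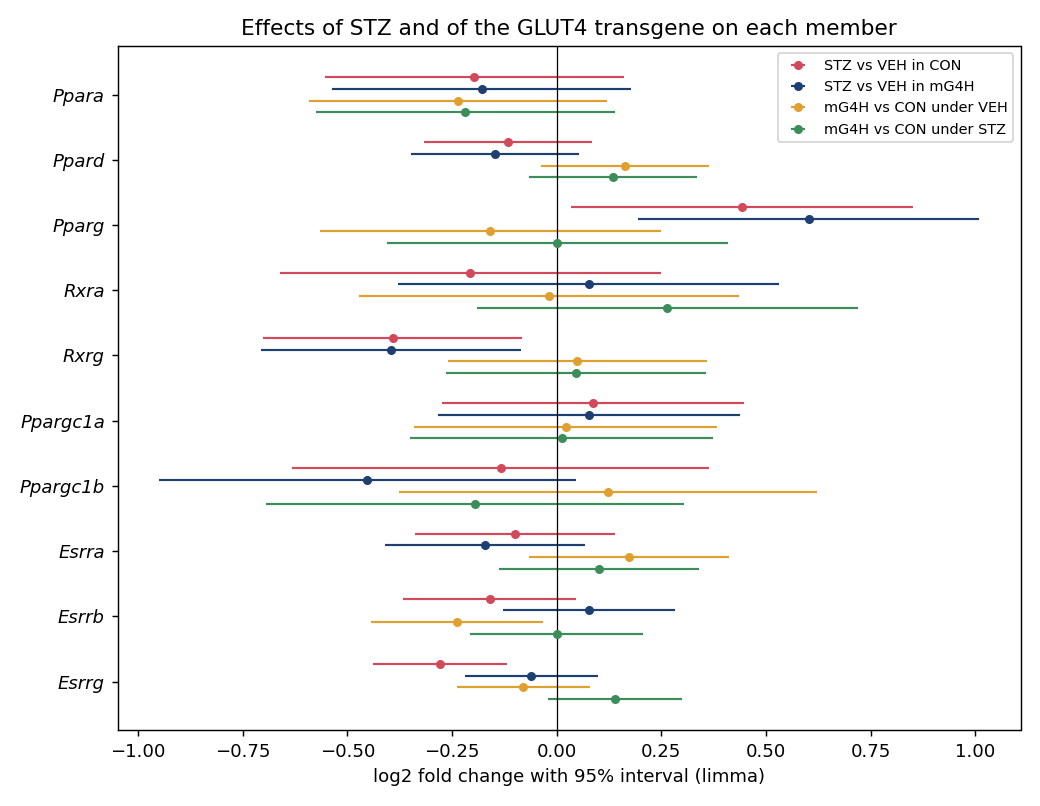
Log2 change of each gene with its 95% interval from limma, for STZ against VEH in each genotype and for mG4H against CON under each treatment, 6 mice per group. The intervals of Pparg lie above 0 and those of Rxrg below 0 for both STZ effects, and that of Esrrg lies below 0 in CON; the difference between its STZ effects was not called.

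PGC-1 alpha, the inducible coactivator of mitochondrial biogenesis, had nearly the same mean in all groups: 3.64 ± 0.33 (SD) in CON VEH, 3.73 ± 0.32 in CON STZ, 3.66 ± 0.24 in mG4H VEH and 3.74 ± 0.32 in mG4H STZ. The range of these means was 0.10, less than the SD of any group. The STZ change of Ppargc1a was 0.09 (95% interval -0.27 to 0.45) in CON and 0.08 (-0.28 to 0.44) in mG4H, so a change of 1 log2 unit in either direction lies outside both intervals. Its other probe gave 0.25 ± 0.21 and 0.21 ± 0.21. Ppargc1a was among the genes with the largest differences between slides, which took 47.3% of its variance, against 53.7% for Esrra, 46.6% for Rxra and 43.0% for Ppargc1b. With slide as a block the STZ change of Ppargc1a was 0.10 ± 0.14 in CON and 0.13 ± 0.14 in mG4H.

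PGC-1 beta, its relative, which is tied to the upkeep of mitochondria and lipid synthesis, varied more. Ppargc1b had a lowest, median and highest level of 1.49, 1.90 and 2.24 in CON VEH, 1.25, 1.73 and 2.39 in CON STZ, 1.60, 2.04 and 2.42 in mG4H VEH, and 0.82, 1.63 and 2.32 in mG4H STZ. The groups overlapped, and 3 of 6 mG4H STZ mice lay below every mG4H VEH mouse. The STZ change was -0.13 (95% interval -0.63 to 0.36) in CON and -0.45 (-0.95 to 0.05; limma adjusted p = 0.417) in mG4H. With slide as a block the latter was -0.43 ± 0.19 (adjusted p = 0.300).

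The same few STZ mice carried the extreme values of Pparg, Rxrg and Ppargc1b. CON STZ replicate 3 had levels of 3.11, 4.08 and 1.25 for these genes in that order, mG4H STZ replicate 3 had 3.003, 4.19 and 0.82, and mG4H STZ replicate 5 had 3.17, 4.29 and 0.98. In each STZ group these were the highest Pparg and the lowest Rxrg and Ppargc1b values, and the other STZ mice had Pparg levels from 1.87 to 2.48. Because these mice stand apart, no correlation between the 3 genes is given over all mice. Body weight at 4 weeks, whose unit the labels do not give, was 24.0, 21.1 and 24.7 in these mice. The CON STZ mice weighed 21.8 to 27.8 and the mG4H STZ mice 21.1 to 28.1, so mG4H STZ replicate 3 was the lightest of its group, while CON VEH mice weighed 27.9 to 36.4 and mG4H VEH mice 25.5 to 31.2. Blood glucose, also without a unit in the labels, was recorded as 601 in all 3 of these mice, as 600 or 601 in every CON STZ mouse, and as 500 to 516 in 3 of the 6 mG4H STZ mice.

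**Figure D3:**
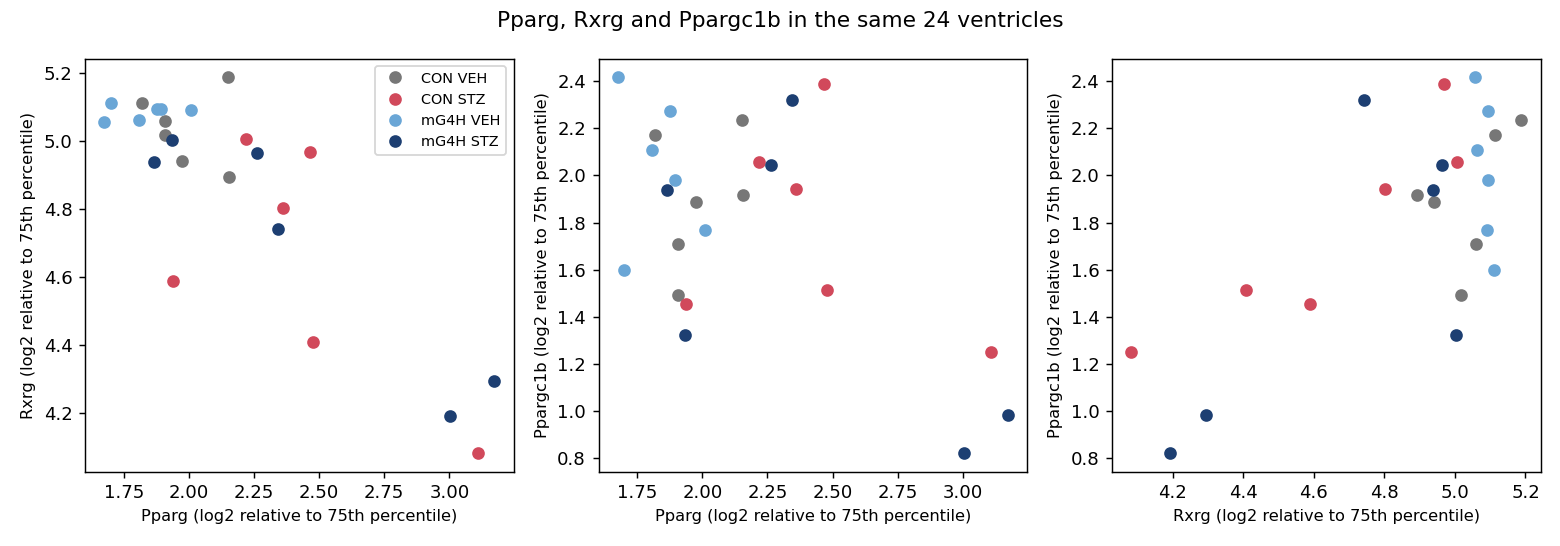
Levels of Pparg, Rxrg and Ppargc1b plotted against each other, 1 point per ventricle, coloured by group, on the log2 scale relative to the 75th percentile. In the panel of Pparg and Rxrg, 1 CON STZ and 2 mG4H STZ mice lie apart, with Pparg at 3.003 or more and Rxrg at 4.29 or less.

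Body weight had its closest relation to Rxrg, among the STZ mice, but this did not pass the adjusted threshold. After group means were removed, Pearson's r over the 12 STZ mice was 0.73 (permutation p = 0.00738; Benjamini-Hochberg adjusted p = 0.148 over 20 relations, 10 genes under each treatment), and Spearman's rho was 0.74 (permutation p = 0.00768, adjusted p = 0.154). Without the 2 mice of most extreme weight r was 0.65, and with slide means removed as well it was 0.75. For Pparg r was -0.47 over the STZ mice (permutation p = 0.123, adjusted p = 0.463), and over the 12 VEH mice r was 0.41 for Rxrg and -0.42 for Pparg. These relations were computed after the data were seen, and none passed the adjusted threshold. With body weight as a covariate the change over both genotypes was 0.32 for Pparg (adjusted p = 0.661) and -0.18 for Rxrg (adjusted p = 0.838). The weights of CON STZ and CON VEH mice did not overlap, so in CON weight and treatment cannot be told apart.

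Among the estrogen-related receptors, Esrrg, the form most tied to oxidative muscle, was the gene called in CON. Its lowest, median and highest levels were 2.39, 2.52 and 2.67 in CON VEH and 2.03, 2.26 and 2.44 in CON STZ, and 5 of 6 STZ mice lay below every VEH mouse. In mG4H VEH they were 2.31, 2.45 and 2.62, and in mG4H STZ 2.27, 2.39 and 2.53, with broad overlap. Esrrg fell by 0.28 ± 0.077 in CON, or 1.21-fold (limma adjusted p = 0.0420), and the change in mG4H was -0.06 ± 0.077 (95% interval -0.22 to 0.10). The difference between these effects was 0.22 ± 0.11 (unadjusted p = 0.0567, adjusted p = 1), so the genotypes were not shown to differ. The other Esrrg probe fell by 0.40 ± 0.097 in CON (adjusted p = 0.0230 over all probes) and changed by -0.08 ± 0.097 in mG4H. The call on the gene lies close to the threshold: with slide as a block the adjusted p was 0.0555, and in CON the change within slides 1, 2 and 3 was -0.18, -0.13 and -0.46. Leaving out single arrays gave adjusted p from 0.0242 to 0.105, under 0.05 in 10 of 24 cases.

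Esrra, a driver of oxidative genes in heart, and Esrrb, known above all from early embryos and stem cells, were not called. Esrra ran from 5.37 to 5.81 in CON VEH, 5.18 to 5.82 in CON STZ, 5.59 to 5.92 in mG4H VEH and 5.21 to 5.88 in mG4H STZ. Its STZ change was -0.10 (95% interval -0.34 to 0.14) in CON and -0.17 (-0.41 to 0.07) in mG4H. Esrrb ran from 3.08 to 3.23 in CON VEH, 2.81 to 3.24 in CON STZ, 2.76 to 3.04 in mG4H VEH and 2.83 to 3.49 in mG4H STZ. The highest of these, in mG4H STZ replicate 1, compares with 2.98 for the next mouse of its group.

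**Figure D4:**
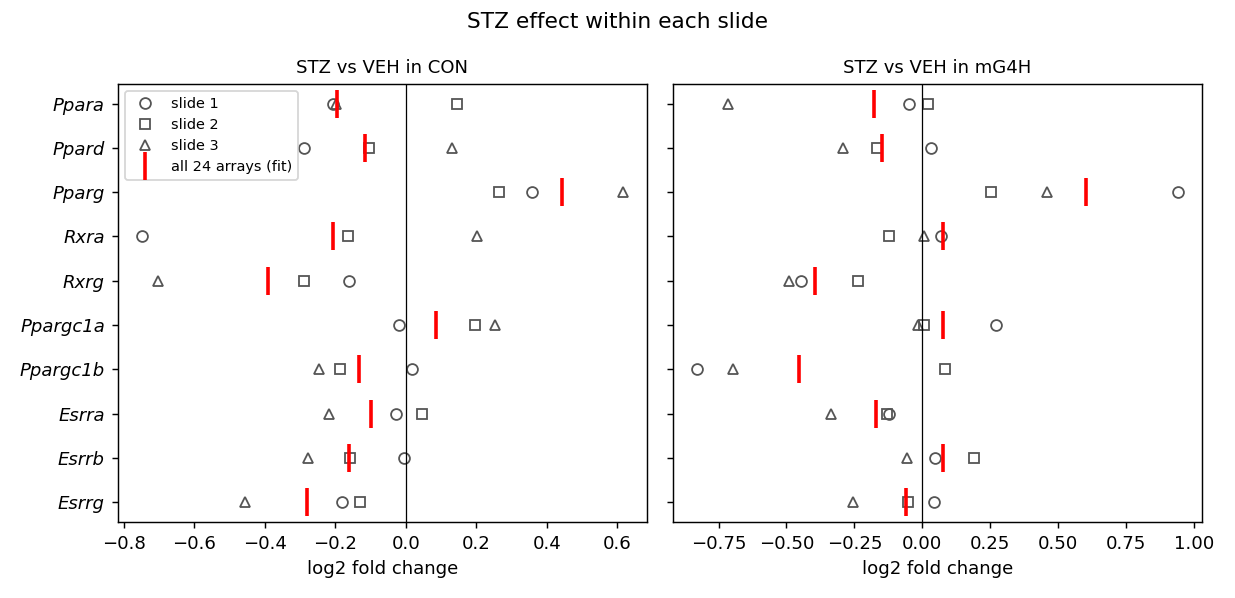
Log2 change between STZ and VEH mice within each of slides 1, 2 and 3, for CON on the left and mG4H on the right, with the value over all 24 arrays as a red bar. Pparg lies above 0 and Rxrg below 0 on all 3 slides in both genotypes.

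No member passed the threshold for the transgene. Under VEH the difference of mG4H from CON ran from -0.24 for Esrrb (95% interval -0.44 to -0.03; unadjusted p = 0.0254, limma adjusted p = 1) to 0.17 for Esrra (-0.07 to 0.41). The mG4H VEH mice had Esrrb levels of 2.76 to 3.04, all below the 3.08 to 3.23 of CON VEH, so these groups did not overlap. Here too the share of all genes without overlap was not counted. Under STZ the differences ran from -0.22 for Ppara (-0.58 to 0.14) to 0.26 for Rxra (-0.19 to 0.72). Pparg differed by 0.00 (-0.41 to 0.41) between the STZ groups, and Rxrg by 0.05 (-0.26 to 0.36).

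Ppargc1a was set against the other 9 genes over the 24 arrays, after group and slide means were removed. Its closest partner was Ppara, with Pearson's r of 0.78 (permutation p = 1e-05, the smallest that 100000 resamples can give; Benjamini-Hochberg adjusted p = 9e-05 over 9 pairs) and Spearman's rho of 0.77 (permutation p = 5e-05). Without the 2 arrays farthest from the median of Ppargc1a r was 0.72, and it was 0.72 over the 12 VEH arrays and 0.83 over the 12 STZ arrays. Pparg (r = 0.63), Esrra (r = 0.59) and Ppard (r = 0.57) also followed Ppargc1a, with adjusted permutation p of 0.00437, 0.00714 and 0.00871 and rho of 0.61, 0.67 and 0.55. Without the same 2 arrays these r were 0.55, 0.74 and 0.35, so that of Ppard rests partly on them. Those arrays were CON STZ replicate 3 and mG4H VEH replicate 1. The mice mG4H STZ replicates 3 and 5, whose Pparg was also extreme, stayed in. Replicate 5 had residuals of 0.71 for Pparg and 0.32 for Ppargc1a, and how far r for Pparg rests on it was not tested. Rxra, Rxrg, Ppargc1b and Esrrg gave r between -0.38 and 0.20 with adjusted permutation p of 0.125 or more, and Esrrb gave r = 0.32 (adjusted p = 0.194) but rho = 0.53 (adjusted p = 0.0155). Several of these values differed between treatments, each over 12 arrays and without a test of the difference: r was 0.67 under VEH and 0.01 under STZ for Rxra, 0.20 and -0.57 for Rxrg, 0.77 and 0.15 for Esrrb, and 0.25 and -0.34 for Esrrg. For Pparg it was 0.49 and 0.74, for Ppard 0.39 and 0.68, for Esrra 0.69 and 0.53, and for Ppargc1b 0.04 and -0.36. All points share the scaling of their array, and residuals from fitted means are not fully independent, so these p are too small.

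By a rule of likeness, the highest Pearson r over the 24 arrays after slide means were subtracted, among 15237 genes well above background on all arrays, the nearest genes to Pparg were Amotl2 (0.97), Hrct1 (0.96) and Arl4a (0.96). Those nearest to Rxrg were Tnfaip2, 6820408C15Rik and Aplnr, at 0.96 to 0.97. For Esrrg they were Ate1 (0.91), Dynll2 (0.85) and Zfp395 (0.85). For Ppara they were Atp5j2 (0.85), Palm (0.84) and Tmem205 (0.83), and for Ppargc1a Lims2 (0.90), Mll5 (0.87) and Tle1 (0.86). The nearest genes to Ppard were Kpna1 (0.87), Helz (0.83) and Cry1 (0.80), to Rxra Gga1, Eif2b5 and Kitl (0.91 to 0.92), to Ppargc1b Tm4sf1, Rnf135 and Gm7696 (0.91), to Esrra 2310028O11Rik, Gm2736 and Ubl4 (0.90 to 0.91), and to Esrrb 1700025K23Rik, Dnajc30 and Ppip5k1 (0.76 to 0.83). These values hold the treatment effect as well as the variation within groups, and describe likeness only. They include the STZ mice that stood apart in Pparg, Rxrg and Ppargc1b, and how far these r rest on those mice was not tested.

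The genes that PPARs act on were counted, gene by gene, as a list beside the receptors. This list, like those below, was chosen with earlier results of these data known. No list was tested as a whole, and its count is no independent evidence. Of 37 measured PPAR targets, 18 rose and 0 fell in CON STZ, where 1.66% of all genes rose, with a median log2 change of 0.53 against 0.03 for all genes. Among those that rose were Acot1, which frees fatty acids from their coenzyme A esters (2.84 ± 0.25), Angptl4, an inhibitor of lipoprotein lipase (2.48 ± 0.31), and Pdk4, the kinase that shuts off pyruvate oxidation (2.01 ± 0.23), each with a limma adjusted p of 0.000115 or less. In mG4H STZ, 2 of 37 rose, where 0.0992% of all genes did, among them Acot1 (1.36 ± 0.25, adjusted p = 0.0241), with a median of 0.30 against 0.06 for all genes. Over both genotypes 23 rose and 0 fell, where 4.51% of all genes rose. For the transgene 0 were called under either treatment, as were 0.0815% of all genes under VEH and 0.0106% under STZ. The median difference of mG4H from CON was 0.16 under VEH, with 25 of 37 above 0, against -0.01 for all genes. Under STZ it was -0.10, with 4 of 37 above 0, against 0.02 for all genes. For the difference between the STZ effects 0 were called, with a median of -0.22 and 5 of 37 above 0, against 0.02 for all genes. The 18 in CON became 8 with median scaling, 9 with a body weight term and 27 with array weights, and the 23 over both became 8 and 11 with the first pair of these. The 2 in mG4H ranged from 0 to 6 between settings and from 1 to 13 when single arrays were left out, the 13 being without mG4H STZ replicate 2. The median change of the 10 receptors and coactivators in CON STZ lay below 0, as the plot of pathway genes shows.

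Targets of the estrogen-related receptors and PGC-1, mostly genes of the respiratory chain and citrate cycle, gave 0 of 24 called in each genotype after STZ. Of all genes, 3.96% were called in CON and 0.266% in mG4H. The medians were -0.09 in CON and -0.06 in mG4H, against 0.03 and 0.06 for all genes. Over both genotypes Nrf1, a regulator of respiratory genes, rose (0.24 ± 0.075, adjusted p = 0.0394), while Tfam, the packaging and transcription factor of mitochondrial DNA (-0.21 ± 0.066, adjusted p = 0.0485), and Sirt3, a mitochondrial deacetylase (-0.26 ± 0.081, adjusted p = 0.0381), fell. These 3 of 24 compare with 10.3% of all genes called, and the count was 0 with median scaling, body weight or no filter, and in 8 of 24 fits without 1 array. Of 20 coregulators, such as the corepressors Ncor1 and Nrip1, 0 were called in any of these contrasts. Of all genes, 3.96% were called in CON, 0.266% in mG4H and 10.3% over both genotypes. Of 24 other nuclear receptors, 0 were called in either genotype, against the same 3.96% and 0.266% of all genes. Over both genotypes 4 rose and 1 fell, against 4.51% and 5.79% of all genes, and with median scaling or body weight 0 were called. The risers with the largest change were Nr4a1, an immediate early receptor (0.86 ± 0.24), and the clock repressors Nr1d1 (0.65 ± 0.19) and Nr1d2 (0.59 ± 0.15), with adjusted p of 0.0214, 0.0271 and 0.0116, followed by Nr2f2 (0.22 ± 0.064, adjusted p = 0.0286). The 1 that fell, named after its value was seen, was Nr2f6 (-0.19 ± 0.057, adjusted p = 0.0356).

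**Figure D5:**
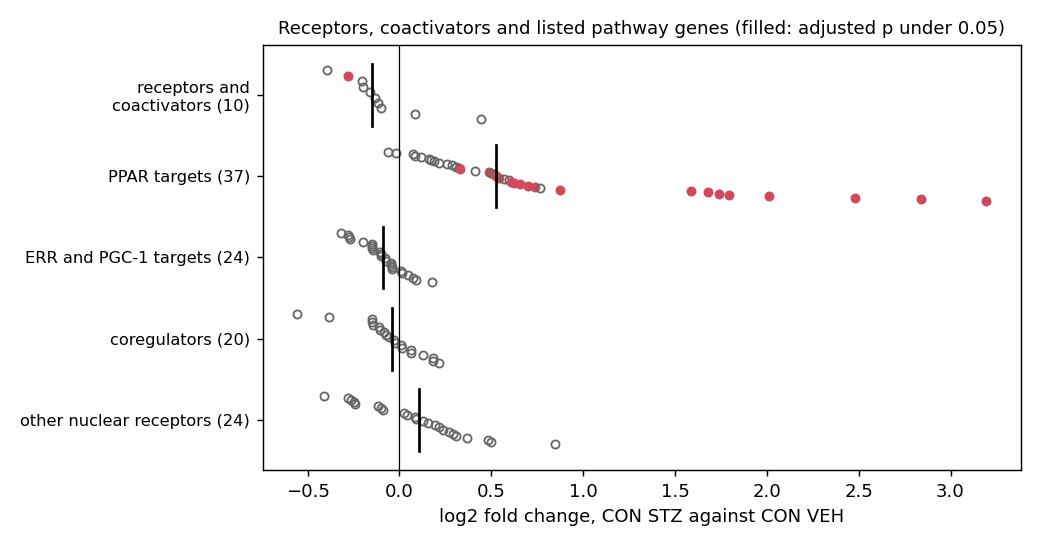
Log2 change of CON STZ against CON VEH for the 10 receptors and coactivators and for 4 lists of related genes, 1 circle per gene, with the median as a black line and filled circles for an adjusted p under 0.05. PPAR targets such as Acot1 reach 2.84 or more, whereas the receptors and coactivators lie between -0.39 and 0.44.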

How the data were processed

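Total RNA of 24 left ventricles was read on Agilent arrays with Cy3 as the single dye, per the labels. Per the file headers, the deposited processed signal is a spot intensity after background subtraction and detrending by Agilent Feature Extraction 10.5.1.1, not scaled between arrays; the submitters' processing notes also name limma. Other deposited columns hold the software's marks for outlier, saturated and above-background spots. From each log2 signal, the log2 75th percentile of its array was subtracted. Outlier spots were left out, spots of a probe averaged, and probes kept when above background on at least 6 arrays (39766 probes). Missing values made up 0.0826%. The headers place probes on mm9, whose sequence was not used here.

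All arrays were fitted together in limma 3.58.1 (R 4.3.3) with group means, two-sided tests, SE from limma and Benjamini-Hochberg adjustment over all 28235 genes. The fit was tested on simulated data. Mice are the replicates. The members and lists were chosen with earlier results of these data known. Every probe of the members was named, with up to 4 called genes of the largest change per list and contrast, Slc2a4, and the 3 nearest genes of each member; 1 gene that this rule names is not reported here. Alternatives were other scalings, background corrections, filters, probe rules, blocks, body weight as a covariate, array weights, a trended prior, separate fits, and leaving out slide 4 or each array in turn. Python 3.11.15 drew the plots.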

Additional observations from a re-analysis of the deposited data

Results flagged for a closer look

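In 40 sets of 6 mice, 10 genes in 4 groups, 2 held a mouse whose distance from its nearest neighbour was over 0.625 of the group's range. About 1 in 20 such sets passes by chance. Ppard in CON STZ replicate 3 was at 1.77, with the other 5 mice between 1.33 and 1.48. Esrrb in mG4H STZ replicate 1 was at 3.49, with the other 5 between 2.83 and 2.98.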

How the results depend on the processing

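In CON STZ, the 1 called gene, Esrrg, fell to 0 called with quantile normalization, median scaling, no filter on dim probes, slide, scan day or replicate block, body weight, without slide 4, separate fits and each probe on its own, and ranged from 0 to 1 when single arrays were left out. Its adjusted p was 0.0802, 1, 0.0696, 0.0555, 0.0626, 0.0775, 0.853, 0.0951, 0.119 and 0.0535 in that order, with the direction kept in all. The call was also lost without replicate 1, 3, 4, 5 or 6 of CON VEH, 1, 3, 4 or 6 of mG4H VEH, 1, 2, 3 or 6 of CON STZ, or 6 of mG4H STZ. Over both genotypes the 3 called genes fell to 0 with median scaling and with body weight, and Pparg and Rxrg were called in 24 of 24 fits without 1 array and in 12 of 14 other settings. No member was called in the other 4 contrasts under any setting.

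Same-numbered mice did not vary together (median correlation 0.0033 over 36 pairs), so the replicate block, under which 0 members were called in CON STZ, shares only a number. The 1117 genes called in CON STZ became 75 with median scaling, 168 with body weight, 642 without slide 4, 2497 with array weights, and 705, 636 and 732 without replicate 3 of CON VEH, 1 of CON STZ and 5 of CON STZ. The 75 of mG4H STZ ranged from 0 to 203 between settings and from 17 to 627 without single arrays, the 23 of the transgene under VEH from 8 to 222, and the 3 under STZ from 0 to 15. The 0 of the difference reached at most 3, and the 2908 over both genotypes became 391 with median scaling and 340 with body weight. The number of arrays limits the precision; the causes were not tested.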
